A study of Drosophila melanogaster with 4 samples.

Results

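Chromosome 4 and the centromere-proximal ends of 3 chromosome arms (X, 2L and 3L) were examined for clusters of H3K9acS10P, histone H3 that carries an acetyl group on lysine 9 and a phosphate on serine 10. A cluster is a stretch of sequence that the authors called as enriched by chromatin immunoprecipitation followed by sequencing (ChIP-seq). All clusters on chromosome 4 were taken, together with all clusters whose midpoint lies in the last 2 Mb of the assembled X, 2L or 3L, on FlyBase release 5. The choice used position only, and gave 326 of the 9877 clusters of the combined list (3.30%). Chromosome 4 (1351857 bp) held 67 of them, the X end 74, the 2L end 92 and the 3L end 93. The rest of the same 3 arms held 4790 clusters and served for comparison.

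The chromatin came from nuclei of Oregon-R Drosophila melanogaster, a wild-type laboratory strain, at the third larval instar. The study has 2 ChIP samples, called replicates 1 and 2, and 2 input samples, and no other genotype, treatment or stage. The labels give neither the sex nor the tissue of the larvae, so the values are an average over all cells of the preparation, and more cells with the mark cannot be told apart from more of the mark per cell. They also do not say whether the replicates are separate cultures, so the spread between them may be technical. One list of clusters was deposited for each ChIP sample (6080 and 7282 clusters) and one for the replicate set, called the combined list here.

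Acetylation of lysine 9 is known as a mark of active promoters. Phosphorylation of serine 10 is placed in interphase fly chromatin by the kinase JIL-1, which limits the spread of lysine 9 dimethylation, and by Aurora B on condensed chromosomes in mitosis. Chromosome 4, the smallest fly chromosome, is rich in repeats and is bound by heterochromatin protein 1 and by the chromosome-specific protein POF, yet many of its genes are expressed. The assembled arm ends pass from euchromatin into pericentric heterochromatin, where dimethylated lysine 9 and heterochromatin protein 1 are abundant. There is 1 chromosome 4 and 1 end of each arm, and clusters along a chromosome are not replicates of it, so the comparisons are descriptions without a test. Differences are set against the spread between the 2 replicates.

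Clusters covered more of chromosome 4 than of any of the 3 arm ends, and less of all 4 than of the rest of the arms. In the combined list 12.1% of chromosome 4 lay inside clusters, against 10.6% of the 3 ends together and 22.1% of the rest of the arms. The single ends were covered at 9.97% (X), 11.2% (2L) and 10.6% (3L). In replicate 1 the coverage was 10.5% on chromosome 4, 6.10% on the X end, 7.38% on the 2L end and 4.61% on the 3L end. In replicate 2 it was 8.83% on chromosome 4, 8.10% on the X end, 8.07% on the 2L end and 8.27% on the 3L end. The lowest replicate of chromosome 4 therefore lay above the highest replicate of any end, by a margin that was small in replicate 2. Over the replicates, coverage averaged 9.65% ± 1.17 on chromosome 4, 7.09% ± 1.50 on the ends together and 15.9% ± 1.67 on the rest of the arms (SD, n = 2 each).

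The ratio of chromosome 4 to the ends was 1.14 in the combined list, 1.74 in replicate 1 and 1.08 in replicate 2, so replicate 1 alone gave a value more than 1.5 times that of either other list. The ratio also depends on how far the ends reach. With ends of 3 Mb in place of 2 Mb it was 0.831, and chromosome 4 was then the less covered. No replicate of chromosome 4 or of an end reached the lowest replicate of the rest of any arm (13.7%). Chromosome 4 had 0.548, 0.712 and 0.517 times the coverage of the rest of the arms in the combined list, replicate 1 and replicate 2, and the ends together had 0.479, 0.410 and 0.477 times. Among the ends, X was at 0.403 to 0.414 times the rest of its own arm over the 3 lists and 2L at 0.535 to 0.562 times. The 3L end ranged more widely, at 0.302 times in replicate 1 and 0.503 times in replicate 2.

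**Figure D1:**
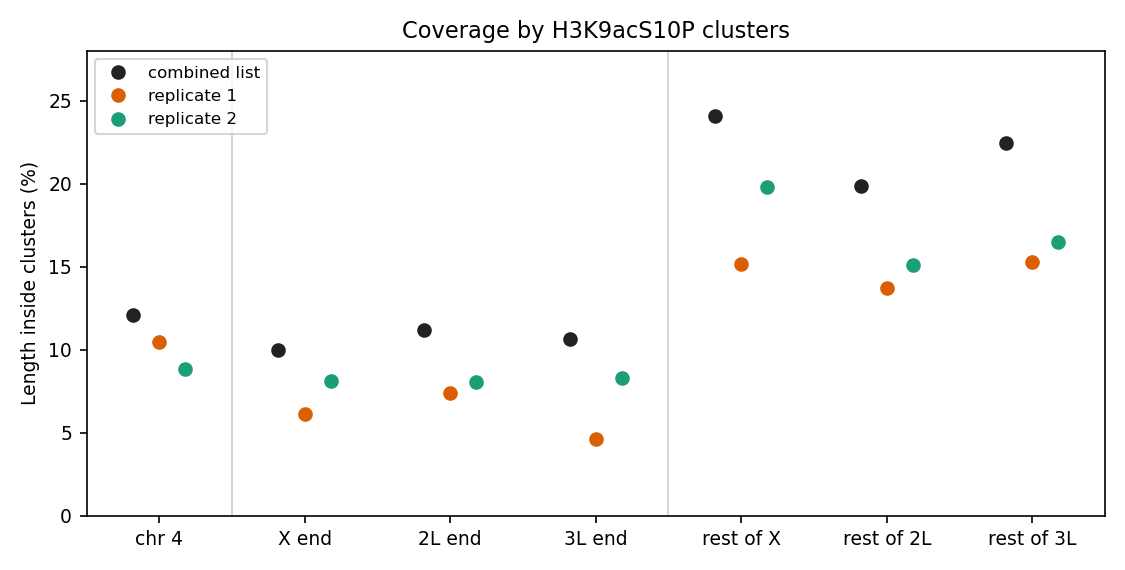
Percentage of each sequence's length inside clusters (y axis) for chromosome 4, the last 2 Mb of X, 2L and 3L, and the rest of those arms (x axis), with 1 point for each deposited list. Chromosome 4 is covered at 8.83 to 12.1% and lies above each end in the same list, while the rest of the arms lie between 13.7 and 24.1%.

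The leading clusters named next are the highest-scoring of those met by both replicates. The score is the authors' own and its scale is not named, so it is used here only to rank clusters within a list. On chromosome 4 the highest-scoring cluster met by both replicates was chr4:86050-88782, 87.4 kb from the centromere-proximal end. It had a score of 2.49 in the combined list, 2.64 in replicate 1 and 2.36 in replicate 2, and ranked 48 of 9877. Lower scores followed at chr4:678696-682112 (1.54), chr4:574798-580204 (1.52), chr4:333076-337022 (1.46) and chr4:212468-215222 (1.36). These 5 clusters lie between 87.4 and 680 kb from the centromere-proximal end. They were picked among clusters met by both replicates, so their support follows from the choice. Their positions depend on it too. In the outermost 100 kb, chr4:1347768-1348770 (2.27) and chr4:1296248-1297266 (1.53), met by neither replicate, scored higher than some of them. The widest cluster was chr4:521706-529570, of 7865 bp, followed by chr4:1048294-1054658, of 6365 bp. The cluster nearest the centromere, chr4:12856-17556, was met by replicate 2 only, and the farthest, chr4:1347768-1348770, was met by neither replicate list although its score was 2.27.

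On the X end the highest score of a cluster met by both replicates, 1.73, belonged to the cluster nearest the centromere, chrX:22413592-22416952, with its midpoint 7.56 kb from the end of the assembled sequence. It scored 1.74 in replicate 1 and 1.79 in replicate 2. The next were chrX:20920770-20927022 (1.58) and chrX:21192508-21198782 (1.57), and the widest of all members, chrX:21215488-21227108, spanned 11621 bp. Replicate 2 alone met chrX:21758892-21760774 and chrX:21766356-21768842, with combined scores of 2.37 and 1.93 and replicate 2 scores of 2.71 and 2.68. These 2 clusters were picked out after their values were seen. They had the highest scores of all members met by only 1 replicate.

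On the 2L end the leading clusters met by both replicates were chr2L:22441386-22444586 (1.96), chr2L:22426774-22433034 (1.88) and chr2L:22238952-22241606 (1.82). They lay at 569, 582 and 771 kb from the centromere-proximal end. The highest score of this end, 3.17, belonged to chr2L:22285338-22286344, met by neither replicate. The cluster nearest the centromere, chr2L:22967526-22969554, had a score of only 0.38, with 0.58 in replicate 1 and 0.10 in replicate 2. On the 3L end the leading clusters met by both replicates lay farther out. They were at 1456 kb (chr3L:23086464-23089380, 2.00), 1680 kb (chr3L:22859826-22867036, 1.73) and 1401 kb (chr3L:23141650-23144464, 1.68). Clusters met by neither replicate scored above the last 2 of these and lay nearer the centromere. They were chr3L:23353746-23354882 (1.79, at 1189 kb) and chr3L:23877408-23878408 (1.78, at 666 kb). The widest cluster there, chr3L:22825216-22835268, spanned 10053 bp at 1713 kb. The innermost 3L cluster, chr3L:24529538-24532114, was met by both replicates, which scored it 1.43 (replicate 1) and 0.52 (replicate 2).

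The edges of the 2 Mb ends were drawn on the assembled sequence. On X the first cluster inside the limit, chrX:20527422-20530634, has its midpoint 106200 bp from it and the first outside, chrX:20392670-20396846, 28070 bp. On 2L the limit cuts through a cluster: chr2L:21009478-21012170 has its midpoint 721 bp outside and chr2L:21015020-21017410 is the first inside. On 3L the first inside, chr3L:22660874-22664438, lies 119098 bp from the limit, and the first outside, chr3L:22469842-22470890, 73192 bp.

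**Figure D2:**
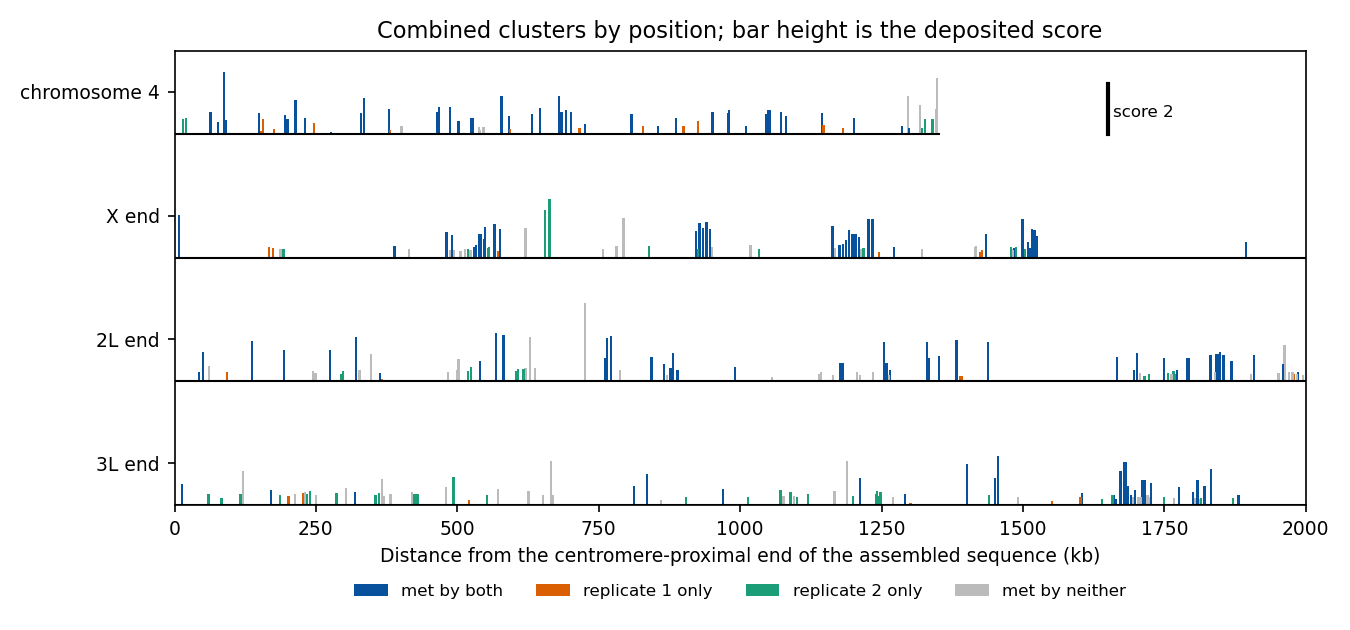
Position of each of the 326 combined clusters (x axis, kb from the centromere-proximal end of the assembled sequence) on chromosome 4 and the 3 arm ends. Bar height is the deposited score, colour is the replicate support and bars are drawn at least 4 kb wide, so narrow clusters appear wider than they are. Clusters are spread along chromosome 4, while the X end shows tight groups separated by stretches without clusters, the longest of 367.3 kb.

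Chromosome 4 and the arm ends also differed in how their clusters were spaced. The ends held groups of clusters with long empty stretches between them, while chromosome 4 had clusters along its whole length. Chromosome 4 held 49.6 clusters per Mb in the combined list, 39.9 in replicate 1 and 36.2 in replicate 2. The ends together held 43.2, 21.5 and 29.5 per Mb in the same lists, and the rest of the arms 74.9, 49.0 and 55.4. In the combined list the density of chromosome 4 was 1.15 times that of the ends, and with ends of 3 Mb it was 0.885 times. The 2 replicates disagreed most on the 3L end, with 34 clusters in replicate 1 and 68 in replicate 2, against 54 and 49 on chromosome 4.

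The median gap between neighbouring clusters was 11.6 kb on chromosome 4 in the combined list, 14.8 kb in replicate 1 and 16.5 kb in replicate 2. For the ends together it was 6.25, 9.16 and 9.30 kb, and for the rest of the arms 2.60, 4.95 and 3.68 kb. The X end had the shortest median gap of the 3 ends, at 3.14, 3.76 and 4.34 kb. The 2L end had 6.71, 17.4 and 10.5 kb and the 3L end 9.72, 21.8 and 17.5 kb, so in the replicate 1 list both had longer median gaps than chromosome 4, as had 3L in replicate 2. Compared with the 3 ends together, chromosome 4 had the longer median gap in all 3 lists, by 1.86 times in the combined list. With clusters below the median score left out the ratio was 1.03.

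The long gaps ran the other way. On chromosome 4 no gap of the combined list was longer than 82.8 kb (chr4:1202923-1285761), and the longest gaps of the replicates, 80.7 and 83.1 kb, lay at about the same place as each other, from 380070 or 382327 onward. The longest combined gap was 367.3 kb on the X end (chrX:20530635-20897913), 226.3 kb on the 2L end (chr2L:21346169-21572503) and 142.0 kb on the 3L end (chr3L:23732713-23874693). The gap on 2L had nearly the same borders in all 3 lists, at 226.3, 226.2 and 226.5 kb. On X the gap was 368.1 kb in replicate 1 and 201.1 kb in replicate 2, where a cluster at chrX:20695278-20696890, absent from the combined list, splits it. On 3L the longest gap was 289.3 kb in replicate 1 and 257.9 kb in replicate 2.

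Gaps of at least 50 kb took 29.0% of the length of chromosome 4, against 42.5% of the ends together and 35.8% of the rest of the arms. In replicate 1 the shares were 29.3, 69.1 and 47.6%, and in replicate 2 they were 39.2, 62.6 and 44.9%, in the same order. The 3L end of the combined list is the exception, at 23.4%, while its replicates gave 71.4 and 50.2%. The coefficient of variation of the gaps, their SD divided by their mean, was 1.07, 0.98 and 0.94 on chromosome 4 in the 3 lists. It was higher on each end in each list, from 1.26 for 3L in the combined list to 2.38 for X in the same list. On the rest of the arms it was 2.43, 2.04 and 2.20, above the ends together (1.88, 1.62 and 1.54), so uneven spacing was not particular to the ends. Gaps under 3 kb made up 25.8% of gaps on chromosome 4, 49.3% on the X end, 29.7% on the 2L end and 33.7% on the 3L end in the combined list. On the rest of the arms they made up 53.4%. In replicate 1 the 3L end had 18.2%, below the 20.8% of chromosome 4.

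**Figure D3:**
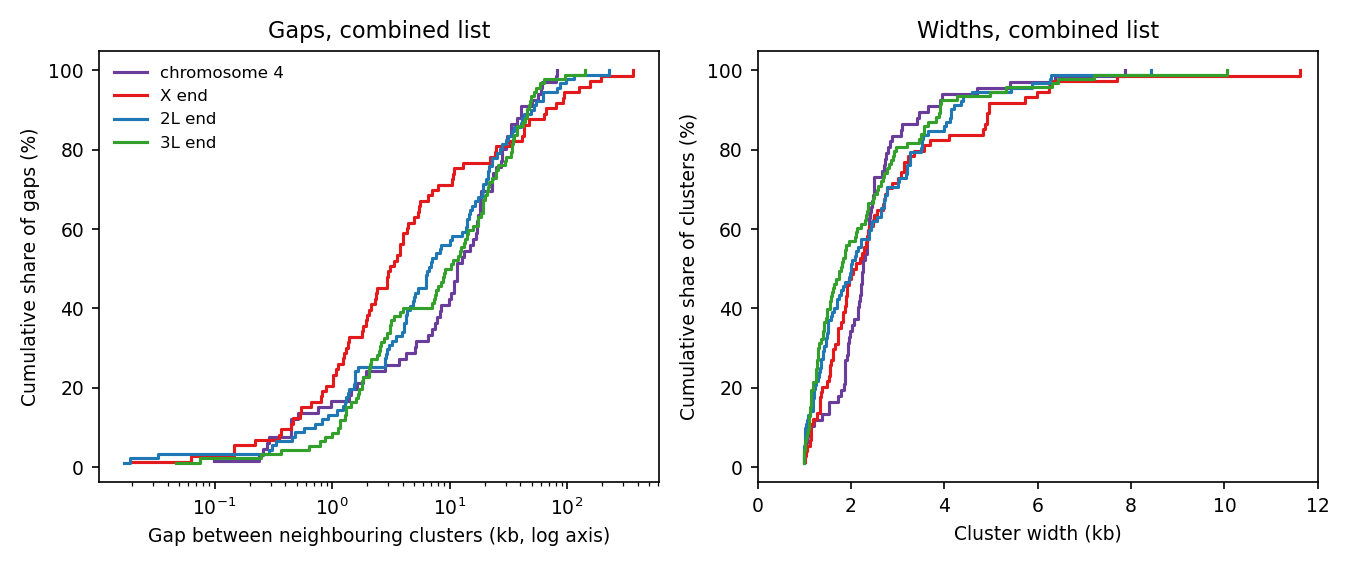
Cumulative share of gaps by length (left, log axis in kb) and of clusters by width (right, kb) in the combined list, with 1 line for chromosome 4 and 1 for each arm end. The chromosome 4 gaps stop at 82.8 kb while those of the X end run from under 3 kb to 367.3 kb, and the chromosome 4 widths climb more steeply, with 3 of 67 clusters at 5 kb or more.

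Steps of 100 kb showed the same evenness. All 14 steps of chromosome 4 held cluster bases in the combined list, between 6.33 and 23.8% of the step, and in replicate 2, between 3.53 and 16.7%. In replicate 1 the outermost step, of 52 kb, was empty and the others were not. Of the 20 steps of the X end, 4 had no cluster base in the combined list, 8 in replicate 1 and 3 in replicate 2. The counts were 1, 4 and 3 for the 2L end and 2, 6 and 3 for the 3L end. The most covered step of chromosome 4 lay at 500 to 600 kb in the combined list (23.8%) and in replicate 1 (18.1%). In replicate 2 that step had 14.5%, and the highest was the 100 kb next to the centromere, at 16.7%. On the X end the steps at 500 to 600 kb (37.7, 23.2 and 31.9%), 1100 to 1200 kb (29.5, 24.2 and 26.1%) and 1200 to 1300 kb (29.7, 20.8 and 26.7%) stood far above the median step of 3.91, 2.28 and 3.28%. On the 3L end the step at 1600 to 1700 kb reached 37.6, 25.0 and 30.7%.

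How alike the 2 replicates placed this pattern depended on the step. Across the 20 steps the Spearman correlation between replicates was 0.89 on the X end, 0.86 on the 2L end and 0.66 on the 3L end. It was 0.51 over the 14 steps of chromosome 4, the lowest of the 4 sequences. In steps of 250 kb the order turned, with 1.00 over the 5 steps of chromosome 4 and 0.93, 0.83 and 0.52 over the 8 steps of the X, 2L and 3L ends. These values describe neighbouring steps of 1 pair of lists and carry no p.

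Clusters on chromosome 4 were more alike in width than those on the 3 ends together, though not than those of the X end in replicate 1, and their median width was not clearly different. The combined median was 2261 bp on chromosome 4, 1957 bp on the ends together and 2225 bp on the rest of the arms. The difference of 304 bp between chromosome 4 and the ends did not hold in the replicates, where chromosome 4 was narrower, with 2339.5 against 2508 bp in replicate 1 and 2172 against 2377 bp in replicate 2. Among combined clusters of at least 1301 bp, the shortest width in either replicate list, the difference was -14 bp. The combined list holds narrower clusters than either replicate list, and these made up 8 of 67 clusters on chromosome 4 (11.9%), 58 of 259 on the ends (22.4%) and 19.3% on the rest of the arms.

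The interquartile range of width was smaller on chromosome 4 than on the ends together or the rest of the arms in every list, at 828, 794 and 559 bp in the combined list, replicate 1 and replicate 2. The ends together had 1657, 1114 and 1499 bp, and the rest of the arms 2083, 1448 and 1825 bp. Each single end had a wider range than chromosome 4 in the same list except the X end in replicate 1, at 581 bp. Wide clusters were few. Chromosome 4 had 3 of 67 clusters of at least 5 kb (4.48%), the X end 6 (8.11%), the 2L end 5 (5.43%) and the 3L end 5 (5.38%). Across the whole combined list the share was 11.6%, and on the rest of the 3 arms 12.4%. In replicate 1 the order differed, with 3 of 54 on chromosome 4 (5.56%) and none of 47 on the X end. The widest cluster was 7865 bp on chromosome 4, 11621 bp on the X end and 29019 bp on the rest of the arms.

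Over the 2 Mb ends coverage was lower in the section nearer the centromere, and on chromosome 4 it was not. On the 3L end this held only for the full 2 Mb or more. Each sequence was divided in its middle into a section nearer the centromere (proximal) and one farther from it (distal). On chromosome 4 the proximal section was covered at 13.2% and the distal at 11.0% in the combined list, at 11.6 and 9.40% in replicate 1 and at 9.48 and 8.18% in replicate 2. On the 3L end the order was opposite in every list, with 7.47% proximal and 13.8% distal in the combined list, 1.95 and 7.27% in replicate 1 and 5.37 and 11.2% in replicate 2. The 2L end had 9.57 and 12.7%, 5.95 and 8.81%, and 7.26 and 8.87% in the same lists. The X end had the smallest difference, with 9.52 and 10.4%, 5.08 and 7.11%, and 7.40 and 8.81%.

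The proximal minus distal difference in percentage points was thus 2.24, 2.15 and 1.30 on chromosome 4 and -3.48, -3.40 and -2.94 on the ends together, in the combined list, replicate 1 and replicate 2. With this division at the middle, the sign differed between chromosome 4 and each end in each list. On 3L the sign depends on the length taken: with the ends cut to the length of chromosome 4 the combined difference was 2.20 on 3L, next to 2.24 on chromosome 4, against -3.00 on X and -0.10 on 2L. With ends of 1 Mb it was 7.32 on 3L, -8.73 on X and -4.52 on 2L. The division chosen also matters. When the 500 kb next to the centromere were set against everything else, the chromosome 4 values were -0.05, 0.60 and 0.25. The X end then gave -6.43, -4.33 and -6.28 and the 2L end -5.13, -3.70 and -4.64. The 3L end gave 0.64, -3.58 and 0.49, so its 2 replicates differed in sign.

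In steps of 250 kb from the centromere, chromosome 4 had 15.3, 8.83, 17.9, 8.43 and 9.73% in the combined list. These 5 steps end at 1250 kb, and the shorter piece beyond them was left out. In the outermost 100 kb coverage was 13.2% in the combined list, 2.73% in replicate 1 and 9.27% in replicate 2. The 2 peaks, at 0 to 250 and 500 to 750 kb, appeared in both replicates, with 13.1 and 15.7% in replicate 1 and 10.9 and 12.8% in replicate 2. The highest of these steps had 2.12 times the coverage of the lowest, against 18.7 times on the X end, 3.96 times on the 2L end and 6.86 times on the 3L end over their 8 steps. None of the 3 ends rose steadily with distance. The Spearman correlation of distance with coverage over these steps was -0.07, -0.02 and -0.05 on the X end in the 3 lists. It was -0.30 on chromosome 4 in each list, and positive on the 2L end (0.21 to 0.43) and the 3L end (0.29 to 0.76). By this measure coverage on the X end did not rise with distance. The X end peaked at 1000 to 1250 kb and was lowest at 1750 to 2000 kb, while the 2L end was highest in its outermost 250 kb.

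Followed to 4 Mb in steps of 500 kb, a profile chosen after the values were seen, the mean of the replicates on X was 3.12, 9.35, 12.4 and 3.57% within the end and 13.6, 25.3, 16.2 and 19.8% beyond it. On 2L it was 4.59, 8.61, 6.74 and 10.9% within the end and 14.5, 10.4, 14.8 and 24.9% beyond it. On 3L it was 5.28, 2.04, 5.76 and 12.7%, then 14.8, 14.5, 19.3 and 16.1%. Within the 2 Mb ends the replicates differed most in the first step of 3L, with an SD of 4.74 (n = 2), and beyond them on X from 2500 to 3000 kb, with an SD of 8.23 (n = 2). The chromosome 4 mean of 9.65% lay above the first 3 steps of 2L and of 3L and below every step beyond 2 Mb.

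**Figure D4:**
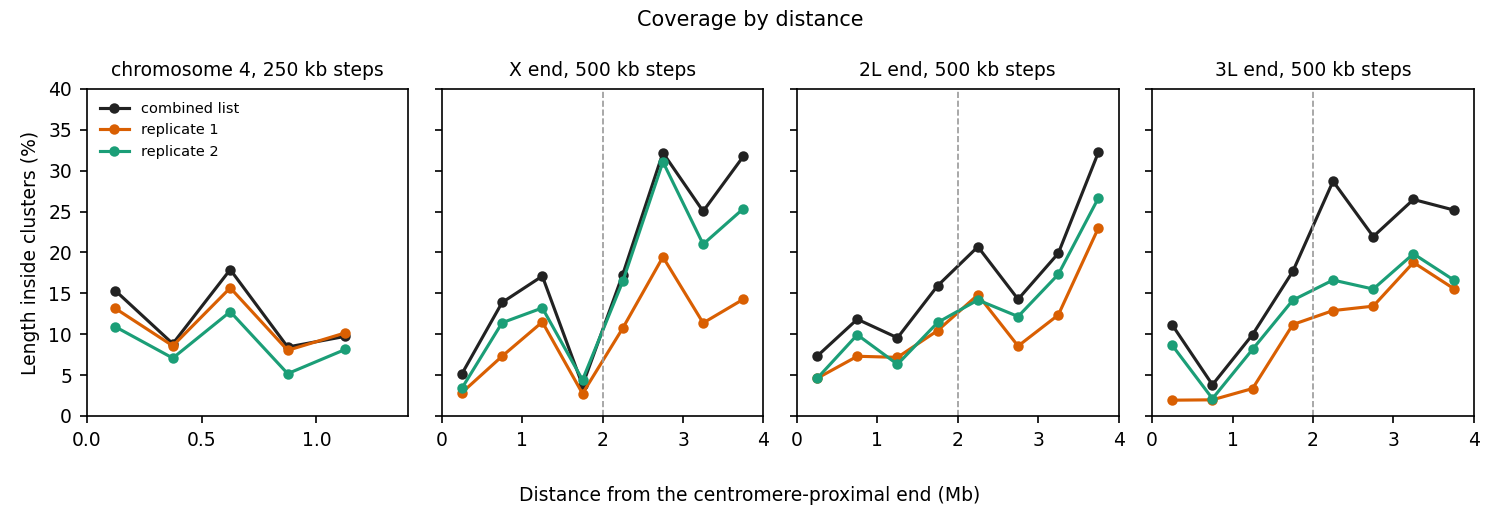
Coverage (y axis, % of step length inside clusters) by distance from the centromere-proximal end (x axis, Mb), in 250 kb steps for chromosome 4 and 500 kb steps for X, 2L and 3L, with 1 line for each list. The dashed line marks the 2 Mb limit of the ends. Chromosome 4 stays between 5.17 and 17.9% in the 3 lists over its 5 drawn steps. These end at 1250 kb, and replicate 1 covers only 2.73% of the outermost 100 kb, which is not drawn. Each arm has its lowest step within the first 2 Mb in every list.

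Combined clusters of chromosome 4 were met by both replicates more often than those of the ends, with the 3L end the lowest. A combined cluster is called met by a replicate when it shares at least 1 bp with a cluster of that replicate's list. On chromosome 4, 42 of 67 clusters were met by both (62.7%, 95% Wilson interval 50.7 to 73.3%), against 104 of 259 on the ends (40.2%, 34.4 to 46.2%) and 50.7% on the rest of the arms. The share over all 9877 clusters was 48.8%. The X end had 35 of 74 (47.3%) and the 2L end 42 of 92 (45.7%), both close to the whole list, and the 3L end 27 of 93 (29.0%, 20.8 to 38.9%). The intervals cover the counting of clusters only, and neighbouring clusters share their chromatin and libraries.

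Clusters met by neither replicate made up 8 of 67 on chromosome 4 (11.9%) and 83 of 259 on the ends (32.0%), against 26.3% of the whole list. Among the ends they were 20 of 74 on X (27.0%), 33 of 92 on 2L (35.9%) and 30 of 93 on 3L (32.3%). The 2 replicates contributed unequally. Replicate 1 met 54 of the chromosome 4 clusters (80.6%) and 122 on the ends (47.1%), against 56.7% of the whole list. Replicate 2 met 47 on chromosome 4 (70.1%) and 158 on the ends (61.0%), against 65.7%. On the 3L end 30 clusters were met by replicate 2 only (32.3%) and 6 by replicate 1 only (6.45%). On chromosome 4 these counts were 5 (7.46%) and 12 (17.9%). Over the whole list the shares were 16.9% for replicate 2 only and 7.94% for replicate 1 only. Of the 27 clusters of the 3L end met by both, 6 lay in the proximal section and 21 in the distal one. Its other clusters were divided more evenly, with 14 proximal and 16 distal among those met by replicate 2 only. The counts were 3 and 3 for replicate 1 only, and 16 and 14 for neither.

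Members with a higher score were met by both replicates more often. Of the chromosome 4 clusters 68.7% scored at or above the median of the whole combined list, against 52.7% on the X end, 54.3% on the 2L end and 52.7% on the 3L end. In replicate 2 the share on chromosome 4 was 42.9% and lay below each end. Among clusters at or above the median score, 78.3% of those on chromosome 4 and 65.9% of those on the ends together were met by both. The X end (79.5%) then lay above chromosome 4 and the 2L end (76.0%) just below it. Among higher-scoring clusters the 3L end alone, at 44.9%, stood well below chromosome 4. On the rest of the arms 1983 of 2156 higher-scoring clusters were met by both, above the share on chromosome 4 or any end. In the whole list, where 50.0% of 9877 clusters score that high, 3944 were met by both, a share near that of chromosome 4. Among clusters met by both, the Spearman correlation of the replicate scores was 0.64 on chromosome 4 (42 clusters), 0.83 on X (35), 0.83 on 2L (42) and 0.59 on 3L (27), as a description.

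Seen from the replicate lists, 42 of the 54 replicate 1 clusters on chromosome 4 (77.8%) met a replicate 2 cluster, and 44 of the 49 replicate 2 clusters (89.8%) met a replicate 1 cluster. For replicate 1 this share was lower on chromosome 4 than on any end, with 40 of 47 (85.1%) on X, 42 of 48 (87.5%) on 2L and 27 of 34 (79.4%) on 3L. For replicate 2 it was higher on chromosome 4, against 36 of 53 (67.9%) on X, 43 of 56 (76.8%) on 2L and 27 of 68 (39.7%) on 3L. The replicates differed most on the 3L end, whereas on the rest of 3L the shares were 81.5 and 75.2%. They were 88.6 and 69.8% on the rest of X and 83.2 and 76.9% on the rest of 2L, near those of the X and 2L ends. Measured in bases, the part shared by both replicates was 64.7% of the bases in either on chromosome 4. It was 57.0% on the X end, 69.5% on the 2L end and 39.4% on the 3L end. On the rest of X, 2L and 3L it was 58.4, 64.1 and 62.4%, so the 3L end alone lay far from these. Bases of the combined list outside both replicate lists made up 8.77% on chromosome 4 and 17.6, 23.6 and 23.6% on the X, 2L and 3L ends. On the rest of X, 2L and 3L they made up 15.9, 17.3 and 19.1%. On chromosome 4 and the ends the replicate lists also hold clusters that the combined list lacks. Within these 4 sequences the highest-scoring of them in replicate 1 was chrX:21601513-21602863, with a score of 3.39 that ranked 3 in that list. No replicate 2 cluster met it.

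**Figure D5:**
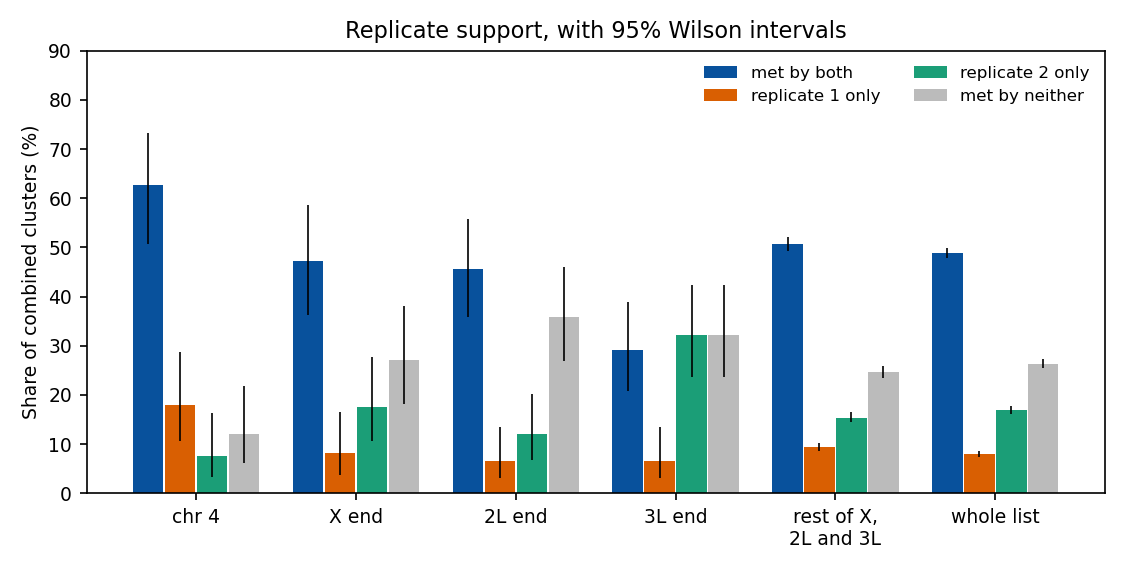
Share of combined clusters (y axis, %) met by both replicates, by 1 replicate only or by neither, on chromosome 4, each arm end, the rest of X, 2L and 3L, and the whole list (x axis). Error bars are 95% Wilson intervals and cover counting only. Chromosome 4 has the highest share met by both (62.7%) and the 3L end the lowest (29.0%), with as many of its clusters met by replicate 2 only as by neither.

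The 2 tips of chromosome 4 differed from its inner part in which replicate met the clusters. This split was made after the values were seen. The 1151.86 kb between the outermost 100 kb on either side held 52 clusters, of which 36 were met by both, 12 by replicate 1 only, none by replicate 2 only and 4 by neither. The 100 kb next to the centromere held 6 clusters, 4 met by both and 2 by replicate 2 only. The 100 kb at the other end held 9 clusters, 2 met by both, 3 by replicate 2 only and 4 by neither. Coverage in this distal tip was 13.2% in the combined list, 2.73% in replicate 1 and 9.27% in replicate 2. Between the tips it was 11.5, 11.1 and 8.11%, so replicate 1 was the higher replicate inside and the lower one at both tips (10.97 against 16.7% next to the centromere).

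The 4 unsupported clusters of the distal tip are of 1 kind. They lie at chr4:1296248-1297266, chr4:1317818-1318822, chr4:1346308-1347322 and chr4:1347768-1348770, are 1003 to 1019 bp wide and have scores from 0.998 to 2.27. Such clusters, met by neither replicate, narrower than any replicate cluster and in the higher-scoring 50%, made up 4 of 67 on chromosome 4 (5.97%) and 18 of 259 on the ends (6.95%). They made up 3.76% of the whole list and 1.38% of the rest of the 3 arms. On the ends they were 2 on X (2.70%), 6 on 2L (6.52%) and 10 on 3L (10.8%). Their median distance from the centromere-proximal end was 451 kb on 3L, 488 kb on 2L, 1105 kb on X and 1333 kb on chromosome 4. For all clusters met by neither replicate it was 764, 1140, 788 and 921 kb in the same order. On 2L the narrow clusters ranged from 61.2 to 1963 kb. The highest-scoring of the narrow clusters was chr2L:22285338-22286344, with a score of 3.17 that ranked 10 in the combined list.

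Many of these narrow clusters carry a score that recurs in the list, which was looked at after the values were seen. Of the 22 on chromosome 4 and the ends, 15 (68.2%) had a score that, to 5 decimals, another combined cluster also has, against 75 of all 326 members (23.0%) and 23.2% of the whole list. The outermost cluster of chromosome 4, chr4:1347768-1348770, shares its score of 2.27 with 9 other clusters, so that 10 have it, of which 9 are narrower than 1301 bp. The score of chr2L:22285338-22286344 is held by 9 clusters of the list, all of them narrower than 1301 bp. One cluster on the 2L end (chr2L:22381998-22382998) and one of the same width on the 3L end (chr3L:23877408-23878408), at the lowest width of the list, have the same score, 1.78.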

How the data were processed

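ChIP-seq with an antibody against H3K9acS10P was run on 2 samples, with 2 input samples. Bowtie 0.12.7 aligned the reads, per the submitters' processing notes. The positions use FlyBase release 5, per the file headers, which also gave the sequence lengths. The authors deposited 1 list of clusters for each ChIP sample and 1 for the replicate set, with a score, a start and an end for each cluster. Not given in the sources used here are the cluster caller, its threshold, the scale of the score, the handling of repeats and input reads, and the way the replicate set was made. Input values were not used here.

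The members and the lists were chosen with earlier results of these data known. Coverage is the length inside clusters over the full length, with assembly gaps and repeats left in, so the level of the mark itself cannot be read from a low coverage. Clusters were cut at the 2 Mb limits for coverage and assigned by midpoint for counts. The lists also type a few regions as depleted (combined list 1, replicate 2 list 1), and these were not counted. A rule for naming listed, for each sequence, the 3 highest-scoring (5 on chromosome 4) and 2 widest clusters met by both replicates. It also listed the highest-scoring met by neither (2 on chromosome 4), the longest gap, and the clusters nearest and farthest from the centromere. The highest-scoring replicate cluster missing from the combined list and the clusters beside each 2 Mb limit completed it. Not all of these are named in the text, and some clusters outside the rule are. Genes and sequences were not assigned, as no release 5 genome was used here.

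No test was run. Wilson intervals at 95% cover counting only, and the depth of the libraries is unknown. The interval code was tested on simulated lists, and its overlap counts equalled those of bedtools 2.31.1. Alternatives were the higher-scoring 50%, a minimum width of 1301 bp, joining across 500 bp, 50% overlap, ends of 1 and 3 Mb or as long as chromosome 4, the 500 kb next to the centromere, and each replicate alone. Leaving out the outermost 100 kb of chromosome 4 was added after the data were seen. Python 3.11.15 with numpy 2.4.6, pandas 2.3.3, scipy 1.17.1 and matplotlib 3.10.9 was used.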

Additional observations from a re-analysis of the deposited data

How the results depend on the processing

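No test was run, so the values below show only how each measure moves, and the cause of each move was not tested. No paired analysis was possible because there is 1 condition and the input samples gave no values here. With each replicate alone, the ratio of chromosome 4 to the ends was 1.08 to 1.74 in coverage (1.14 in the combined list), 1.23 to 1.86 in clusters per Mb (1.15) and 1.62 to 1.78 in median gap (1.86). The width difference was -205 to -168.5 bp (304), and the proximal minus distal difference was 1.30 to 2.15 on chromosome 4 (2.24) and -3.40 to -2.94 on the ends (-3.48). With ends of 3 Mb the ratios were 0.831 in coverage, 0.885 in density and 3.05 in gap, the width difference 181 bp and the difference on the ends -9.20. With ends of 1 Mb the gap ratio was 1.09, the width difference 378 bp, the difference on the ends -1.98 and the share met by both 33.9%. With ends as long as chromosome 4 the gap ratio was 1.30, the width difference 396 bp and the difference on the ends -0.298. In the higher-scoring 50% the gap ratio was 1.03, the width difference -331 bp, the proximal minus distal difference 2.85 on chromosome 4 and -2.15 on the ends, and the shares met by both 78.3 and 65.9%. With a minimum width the width difference was -14 bp, the chromosome 4 difference 2.85 and the share on the ends 51.7%. Joined clusters gave a gap ratio of 2.05 and a width difference of 337 bp, and leaving out the outermost 100 kb of chromosome 4 gave 2.11 and 398 bp. The proximal 500 kb against the rest gave -0.053 on chromosome 4. Of the 165 further values for single sequences, 113 moved by more than the replicate spread and 3 changed sign. The chromosome 4 difference is not among the 165, and it also changed sign, from 2.24 to -0.053 for the proximal 500 kb. All 3 sign changes among the 165 were in the difference on the 3L end (-6.35). It was 2.20 at the length of chromosome 4, 7.32 at 1 Mb and 0.64 for the proximal 500 kb. Depth is unknown, so an empty stretch may be one where the mark was not detectable.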
